A study of Mus musculus with 2 samples.

Results

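Gnas is an imprinted gene on the plus strand of mouse chromosome 2 (ENSMUSG00000027523.19, chr2:174284320-174346744, mm10, GENCODE vM21). The locus was taken as this span with 10 kb added on both sides, and its members are all CpG sites in the deposited counts that fall within it. In replicate 1, 860 of 13676795 CpG sites were members, and in replicate 2, 294 of 4918612. The 24 annotated Gnas transcripts begin at sites that were joined into 7 start groups wherever neighbouring starts lay within 500 bp of each other.

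The data are from SCoTCH-seq, a method that ties the 2 strands of a DNA fragment together with a hairpin and so reads C, mC and hmC on both strands of a CpG in 1 read pair. The result is 1 of 9 CpG states per call, written with the plus strand first, such as CC (both strands unmodified), MM (both methylated), MC or CM (hemimethylated), HC or CH (hmC opposite C), HM or MH (hmC opposite mC) and HH. Both libraries came from E14 mESCs, an untreated mouse embryonic stem cell line grown with serum and LIF, and the replicates are separate passages of this 1 line. There is 1 condition, so no test between samples was possible, and the counts hold no transcript levels against which the cell type could be checked.

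The locus holds 1614 CpG sites in GRCm38.p6. Replicate 1 covered 53.3% of them with a mean depth of 9.06 calls per site, and replicate 2 covered 18.2% with a mean depth of 6.29. Of the covered sites, 241 were covered in both replicates. Intervals given below are exact 95% intervals of counting error. Calls at neighbouring CpG sites often come from the same read pair, so the intervals are too narrow. The counts carry no allele, and a site methylated on 1 parental allele cannot be told apart from a site methylated in some of the cells.

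Imprinted genes are expressed from 1 parental allele, and the choice is carried largely by DNA methylation, part of which is set in the germ line. Gnas is among the most intricate of them, because several promoters splice onto shared downstream exons. Nesp, the most upstream, encodes the secretory protein NESP55 and is used on the maternal allele. XL encodes XLαs, a large form of the stimulatory G protein α subunit used on the paternal allele, and the antisense noncoding RNA Nespas starts near it. Exon 1A starts a noncoding paternal transcript, and exon 1 starts Gsα itself, which couples hormone receptors to adenylyl cyclase and is biallelic in most tissues. The Nespas and XL stretch and the exon 1A stretch are known to be methylated on the maternal allele, and the Nesp stretch on the paternal allele.

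Because the counts turn on which CpG sites could be read, 4 stretches of the reference (GRCm38.p6, plus strand, 5′ to 3′) are shown, with the CpG sites that had calls in replicate 1 in capitals. The stretches before the Nesp start (chr2:174284080-174284319), beyond the 5′ end of Nespas (chr2:174295462-174295701) and before the exon 1A start (chr2:174327330-174327569) hold no annotated Gnas exon. The stretch of the XL coding exon (chr2:174299918-174300157) is the run of 240 bases with the most covered sites in its coding part.
Nesp: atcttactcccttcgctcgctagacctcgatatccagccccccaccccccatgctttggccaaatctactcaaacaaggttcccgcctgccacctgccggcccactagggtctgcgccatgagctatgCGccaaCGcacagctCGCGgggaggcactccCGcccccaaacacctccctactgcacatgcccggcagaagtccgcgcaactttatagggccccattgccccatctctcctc
Nespas: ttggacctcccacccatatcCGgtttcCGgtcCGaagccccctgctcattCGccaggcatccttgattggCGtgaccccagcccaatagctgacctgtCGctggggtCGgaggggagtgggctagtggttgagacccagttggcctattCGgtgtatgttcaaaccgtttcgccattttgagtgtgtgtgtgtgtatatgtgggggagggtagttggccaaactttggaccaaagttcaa
XL: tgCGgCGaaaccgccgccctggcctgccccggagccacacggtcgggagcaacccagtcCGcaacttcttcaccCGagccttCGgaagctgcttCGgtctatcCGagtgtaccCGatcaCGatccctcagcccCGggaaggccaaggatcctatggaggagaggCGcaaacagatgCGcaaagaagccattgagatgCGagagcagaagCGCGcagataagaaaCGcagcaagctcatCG
exon 1A: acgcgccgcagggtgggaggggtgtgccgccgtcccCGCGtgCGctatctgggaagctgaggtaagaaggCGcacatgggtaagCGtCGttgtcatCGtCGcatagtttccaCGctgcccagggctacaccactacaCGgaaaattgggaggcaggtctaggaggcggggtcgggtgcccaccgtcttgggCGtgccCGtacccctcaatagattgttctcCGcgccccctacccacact

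The calls at these stretches were as follows. Before exon 1A, all 105 calls at 13 CpG sites in replicate 1 and all 36 calls at 6 sites in replicate 2 were CC. Beyond the 5′ end of Nespas, 14 of 77 calls in replicate 1 were MM (18.2%, interval 10.3 to 28.6%), and these fell on 7 of the 8 covered CpG sites, with between 1 and 3 MM calls at each. None of those 77 calls was MC, CM or a form of hmC. Sites this close often share a read pair, so these sites and calls are not separate observations. Replicate 2 had 2 MM calls of 15 there. In the XL coding exon, MM made up 23 of 140 calls in replicate 1 and 2 of 39 in replicate 2. Before the Nesp start, 5 of 14 CpG sites were covered in replicate 1, with 28 of 29 calls CC, and none was covered in replicate 2. The hexamer TGCCGC, which the imprint-maintaining protein ZFP57 recognizes when methylated, was searched on both strands of the RefSeq promoters (300 bases around each start). It was found in 11.6% of 32851 promoters and in 0 of the 4 listed for Gnas. The exon 1A stretch printed above holds 1 match, and 9.16% of 10189 stretches of 240 bases before the annotated starts of chromosome 2 hold at least 1. In the wider windows of 1 kb either side of the starts, there were 2 matches at Nesp, 2 at the inner Nesp group, 1 at XL, 4 at exon 1A, 2 at exon 1 and 0 at both retained-intron starts. Of the windows of 2001 bases around all chromosome 2 starts, 36.5% hold a match. The Nesp and inner Nesp windows overlap, and those of the inner Nesp, exon 1A and exon 1 groups are longer than 2001 bases. Few CpG sites of the matches were covered. In replicate 1, the Nesp and inner Nesp windows each had 1, with 5 of 5 calls CC. Exon 1A had 1, with 7 of 7 calls CC in replicate 1 and 4 of 5 in replicate 2. None of these calls was MM, and no match at XL or exon 1 was covered.

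Across the whole locus, unmodified CpG was the most abundant state. CC made up 50.1% of 7791 calls in replicate 1 (interval 49 to 51.3%) and 49.6% of 1850 calls in replicate 2 (47.3 to 51.9%), against 22.1% and 19.5% of calls genome-wide. MM accounted for 34.2% and 35.9% of calls in the locus, against 55.9% and 59.6% genome-wide. MC/CM was also less frequent than genome-wide, at 8.32% and 8.65% against 13.5% and 14.6%. The means over the replicates were 49.9% ± 0.363 for CC, 35.1% ± 1.27 for MM and 8.48% ± 0.234 for MC/CM (SD, n = 2).

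HC/CH made up 3.93% of calls in replicate 1 and 3.24% in replicate 2, HM/MH 2.88% and 2.32%, and HH 0.590% and 0.216%. The intervals of the replicates overlapped for all 3 of these states. Known MM sites in the spike-in duplexes were called HM or MH at 4.51% in replicate 1 and 0.467% in replicate 2. Corrected for the call rates of each library, the HM/MH level came to 1.23% for replicate 1 and 2.10% for replicate 2, and the order of the replicates turned around.

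Over the gene span alone, CC was higher in Gnas than in most genes. Set against the 11242 protein-coding genes that had 50 or more covered CpG sites per replicate, the CC level of Gnas exceeded that of 95.1% of genes in replicate 1 and 95.8% in replicate 2. The median gene had 24.8% and 20.8% CC, and Gnas had 55.4% and 54.1%. By the summed absolute difference over the 6 state levels in both replicates (12 values), the closest genes were Txndc12 (6.99 percentage points in total), Trmt1 (8.94), Espn (9.60), Mrps31 (9.96) and Npas1 (10.5), against a median of 128.7 over all these genes. Txndc12 had 54.5% and 54.9% CC and 31.0% and 30.8% MM.

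The exons of Gnas held more CC than its introns in both replicates. Exonic CpG sites were 72.4% CC in replicate 1 (70.4 to 74.3%) and 82.3% in replicate 2 (78.5 to 85.6%), and intronic sites 47.3% and 42.1%. Away from the start groups, by more than 1 kb, exons were still at 60.7% and 79.6% CC (129 and 31 sites) and introns at 41.6% and 37.8%. These exon sites include the far part of the XL first exon, which as a whole was at 82.8% and 96.1% CC. The exons without it were not examined apart.

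The locus was cut into 83 bins of 1 kb, and each bin with at least 5 CpG sites was assigned to a class. Bins with CC over 75% are called unmethylated, bins with CC under 25% methylated, and bins with CC and MM each between 25 and 75% mixed. In 23 bins both replicates had enough sites. Of these, 9 were unmethylated in both replicates (39.1%), against 7.49% of bins genome-wide, and 11 were methylated (47.8%), against 64.4%. The mixed class held 1 bin (4.35%), against 10.1% genome-wide, and 2 bins fell into different classes. In replicate 1 alone, 15 of 59 bins were unmethylated, 33 methylated and 6 mixed, where the genome-wide shares were 3.75%, 75.7% and 17.4%. Replicate 2 alone had 9, 11 and 3 of 23 bins in these classes, where the genome-wide shares were 8.37%, 71.5% and 15.4%. The 1 mixed bin, 50 kb from the Nesp start in an intron, had 48.7% and 42.4% CC with 32.1% and 39.4% MM.

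**Figure D1:**
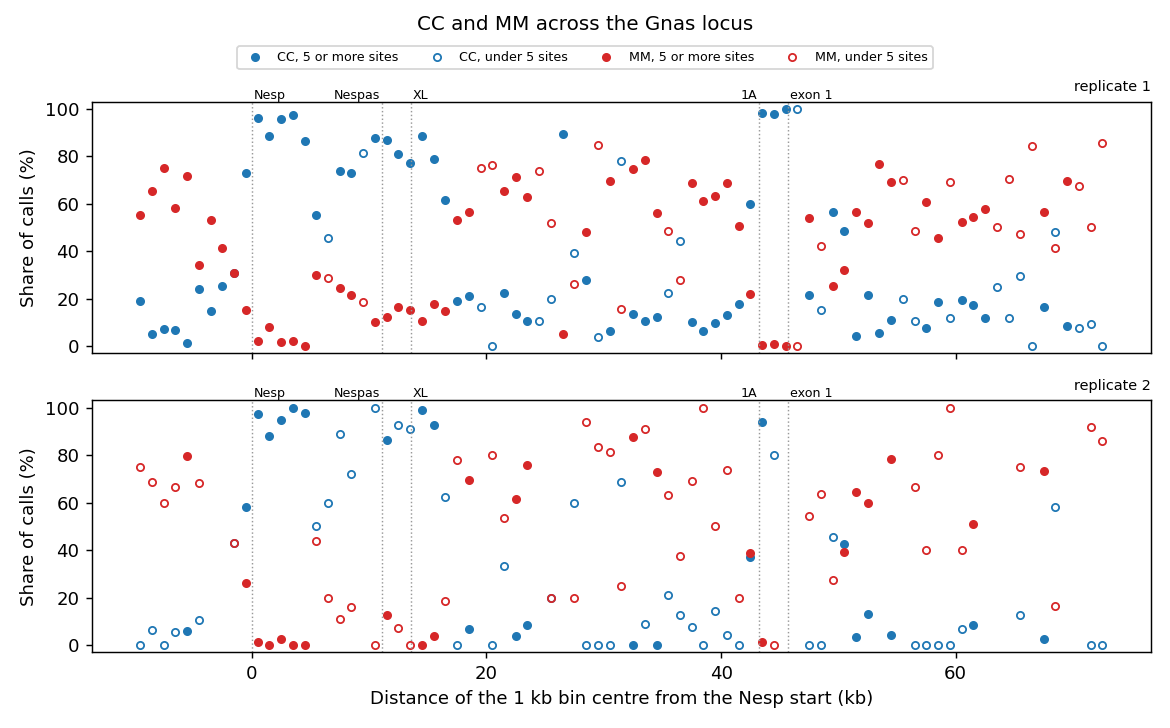
CC (blue) and MM (red) as a percentage of calls in each 1 kb bin, against the distance of the bin from the Nesp start in kb, for each replicate. Filled points are bins with at least 5 CpG sites, open points have fewer, and dotted lines mark the starts. In replicate 1, CC is above 70% in the bins from Nesp to XL, except at 5 and 6 kb (55.3 and 45.7%), and again at exon 1A and exon 1. MM is higher in most other bins, and the bin at 26 kb has 89.5% CC.

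The plot of CC and MM by distance shows 3 low-methylation stretches. The first begins at Nesp and runs for 5 bins, whose CC levels span 86.4 to 97.2% in replicate 1. In replicate 2 they span 88.2 to 100%. After 2 bins with 45.7 to 55.3% CC in replicate 1, the next 3 bins had 73.0 to 81.5% CC, and the second stretch takes in the Nespas start and the XL exon, with 77.3 to 88.4% CC per bin in replicate 1. The third lies at exon 1A and exon 1, where the bins in replicate 1 were at 97.8 to 100% CC. Between the second and the third, a further bin with at least 5 sites, 26 kb from the Nesp start, had 89.5% CC over 57 calls at 8 sites in replicate 1 and no covered site in replicate 2.

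At the Nesp start, which codes for NESP55, the window of 1 kb either side held 669 calls at 74 CpG sites in replicate 1 and 213 calls at 26 sites in replicate 2. CC was 87.4% (84.7 to 89.9%) and 84.5% (78.9 to 89.1%), and MM was 7.03% and 9.39%. The intervals of the replicates overlapped for both states. The MM calls lay mainly before the start. The 1 kb before it had 72.9% CC and 15.1% MM in replicate 1 and 58.0% CC and 26.1% MM in replicate 2, while the 1 kb after it had 96.2% and 97.2% CC.

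The inner Nesp group, 2 transcripts annotated as protein-coding with starts at 174285256 and 174285358, was lower still in methylation. CC was 94.1% in replicate 1 and 95.4% in replicate 2, with MM at 3.78% and 1.54%. In its window, 51 of 77 sites in replicate 1 and 20 of 26 in replicate 2 had only CC calls. An annotated start of the antisense Nespas lies in the same window.

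At the main Nespas starts, 2 annotated positions joined into 1 window, replicate 1 had 371 calls at 44 CpG sites and replicate 2 had 122 calls at 21 sites. CC was 85.7% (81.7 to 89.1%) and 90.2% (83.4 to 94.8%), and MM was 12.9% (9.70 to 16.8%) and 9.02% (4.59 to 15.6%). MC/CM was 0.809% and 0.820% of calls. So nearly all methylated calls carried mC on both strands. The small noncoding genes Gm27869 and Gm27849 lie here, and in replicate 1 their 2 and 4 covered sites had only CC calls. Gm27899, further upstream, had no covered site.

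At the XL start, which codes for XLαs, CC was 81.2% over 335 calls in replicate 1 (76.6 to 85.2%) and 97.9% over 48 calls in replicate 2 (88.9 to 99.9%). MM was 13.4% (9.97 to 17.6%) in replicate 1, and it was 0 of 48 calls in replicate 2 (0 to 7.40%). The replicates did not overlap for either state. Replicate 2 covered 8 of the 101 CpG sites of this window and replicate 1 covered 46.

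The stretch from the Nespas start through the XL exon (chr2:174295437-174300217) combined low MM with few hemimethylated calls. MM was 14.1% of 1057 calls at 141 sites in replicate 1 (12.1 to 16.3%) and 5.58% of 269 calls at 44 sites in replicate 2 (3.15 to 9.03%). MC/CM was 2.08% and 1.12%. Between the Nesp and Nespas starts, MM was 7.64% and 4.09% and MC/CM 2.05% and 1.82%, so both were low there as well. At the 31 sites covered in both replicates, MM was 13.9% in replicate 1 and 5.15% in replicate 2, so the difference between the libraries was also present at the same sites. The 2 parts of the stretch differed in replicate 2, where MM was 11.2% of 116 calls before the XL start and 1.31% of 153 calls in the XL exon, while in replicate 1 they were at 15.3% and 13.0%.

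Within this stretch, the MM calls of replicate 1 were spread over the sites, and 86 of 141 sites had one. Neighbouring sites often share a read pair, so these sites are not separate observations. The variance of MM between sites was 1.04 times that of binomial counts with 1 shared level. In replicate 2 this ratio was 0.871, although MM was found at 12 of 19 sites before the XL start and at 2 of 25 in the XL exon. At this depth, a ratio near 1 does not show that the sites share 1 level. The same ratio was 2.39 and 1.90 between the Nesp and Nespas starts, 3.26 and 2.66 between the XL exon and exon 1A, and 0.797 and 0.874 between exon 1A and exon 1, where there were 2 and 1 MM calls. If mC were placed on the strands independently at its overall level, 2.32% of calls in the Nespas and XL stretch of replicate 1 would be MM, and 14.1% were. In replicate 2 these values were 0.399% and 5.58%. Such an excess was not particular to this stretch. Between the Nesp and Nespas starts the values were 0.805% and 7.64% in replicate 1, and 0.273% and 4.09% in replicate 2. These measures, and the share below, were chosen after the values were seen and are given without a test.

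**Figure D2:**
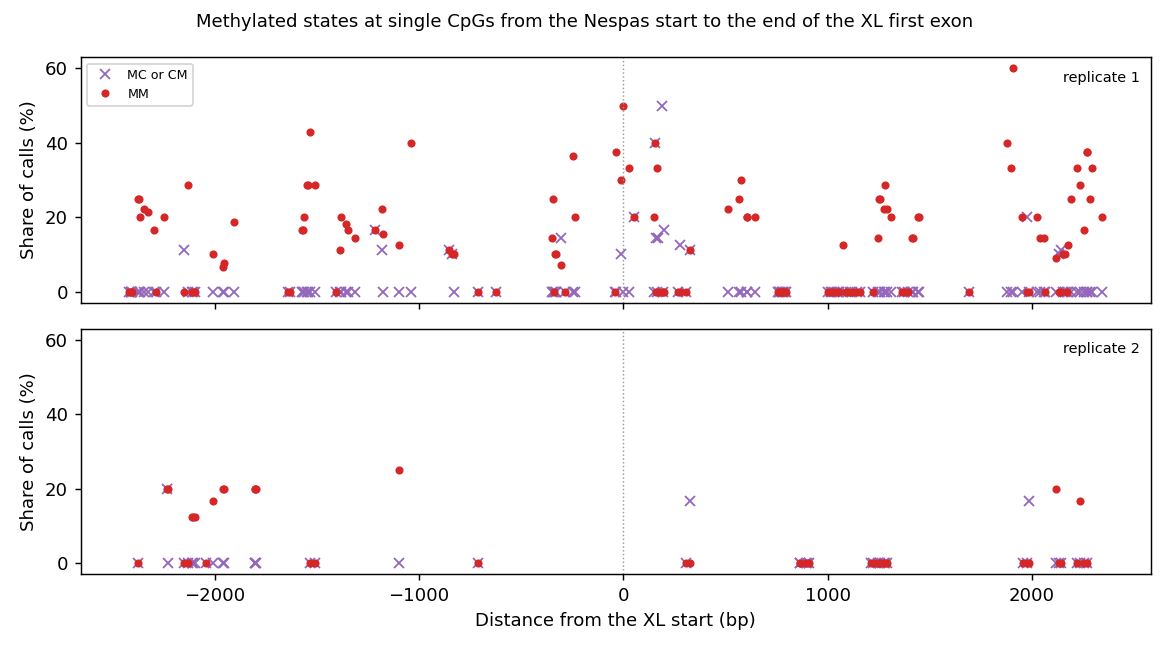
MM (red points) and MC or CM (purple crosses) as a percentage of calls at each CpG site from the Nespas start to the end of the XL first exon, against the distance from the XL start in bp, for each replicate. In replicate 1, 86 of 141 sites carry MM, mostly under 40%, while most MC or CM values are at 0, and replicate 2 has MM at 14 of 44 sites.

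The share of MC and CM among MC, CM and MM calls puts this on a common scale. It was 19.5% of such calls genome-wide in replicate 1 and 19.7% in replicate 2, and 19.6% and 19.4% over the whole Gnas locus. From the Nespas start through the XL exon it was 12.9% in replicate 1 (22 of 171 calls, interval 8.24 to 18.8%) and 16.7% in replicate 2 (3 of 18 calls, 3.58 to 41.4%). Known CC sites were called MC or CM at 0.647% in replicate 1 and 1.37% in replicate 2. With all 9 states corrected together for the call rates of each library, the share was 7.80% and 0.687%. The genome-wide shares above were not corrected.

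In the same range of CC, 75 to 95%, and with at least 10 methylated calls, 20008 bins genome-wide in replicate 1 had a median share of 25.9%. The locus had 7 such bins in replicate 1. Of these, 1 bin at the inner Nesp starts (6.67%) and 5 of the 6 bins from the one just before the Nespas start to the end of the XL exon (0 to 12.9%) were below the genome-wide lower quartile of 17%, and the bin of the XL start itself was above the median, at 30.4%. The lowest was the bin that begins 14 kb from the Nesp start, with 0 MC or CM calls and 27 MM calls, and 2.54% of the genome-wide bins were at the same value. The genome-wide bins were chosen by CC and a minimum of methylated calls, and were not matched in MM level. Linked calls at neighbouring sites were counted apart in all bins. In replicate 2 a single bin qualified, with 8.33%, where the genome-wide median was 29.4%. At 10 start windows of 9 other maternally methylated genes in the same range in replicate 1, the share ran from 13.5% (Inpp5f) to 42.9% (Gpr1), with a median of 21.9%. Over Gnas start windows, the measure of the same kind, the share in replicate 1 was 21.7% at Nesp, 20.7% at the inner Nesp group, 26.2% at XL and 37.5% at exon 1A, all within the range of the other genes.

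**Figure D3:**
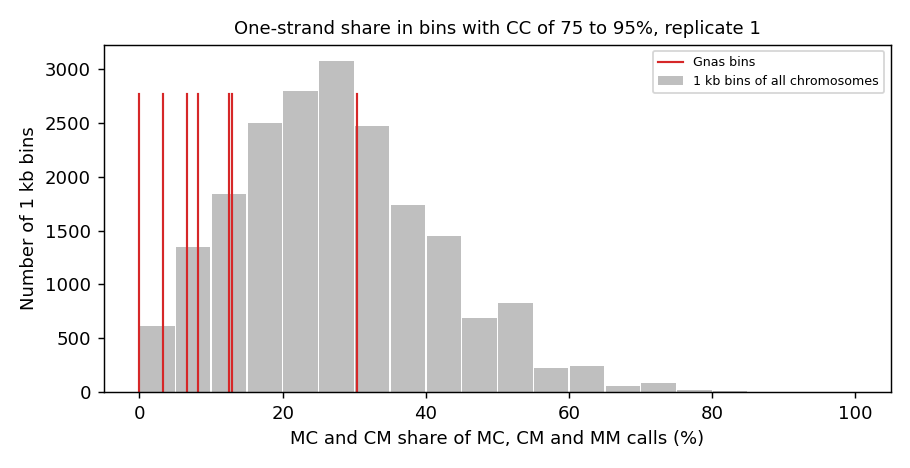
Number of 1 kb bins (grey bars, 5 percentage points wide) by the share of MC and CM among MC, CM and MM calls, for 20008 bins with CC of 75 to 95% in replicate 1. Red lines are the 7 bins of the Gnas locus, 6 of which lie below 17% and 1 at 30.4%.

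Exon 1A starts a noncoding transcript, and its window of 1 kb either side held 572 calls at 75 sites in replicate 1 and 158 calls at 27 sites in replicate 2. CC was 89.0% (86.1 to 91.4%) and 72.8% (65.1 to 79.6%), and MM was 5.24% (3.57 to 7.40%) and 13.9% (8.94 to 20.3%). The replicates did not overlap in CC or in MM. The MM calls lay mainly in the part before the start, and the bin that begins 42 kb from the Nesp start had 59.9% CC in replicate 1 and 37.0% in replicate 2. From the exon 1A start to the exon 1 start, CC was 97.4% and 86.8%, and 2 of 310 calls in replicate 1 and 1 of 68 in replicate 2 were MM.

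Exon 1 begins the transcript of Gsα within a dense CpG island, and it was poorly covered. Of 223 CpG sites in its window, 17 were covered in replicate 1 and none in replicate 2. All 91 calls in replicate 1 were CC, with an interval of 96.0 to 100%. A CC level higher than in 99.6% of the 51538 start windows of all genes therefore rests on 7.62% of its CpG sites and 1 library.

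**Figure D4:**
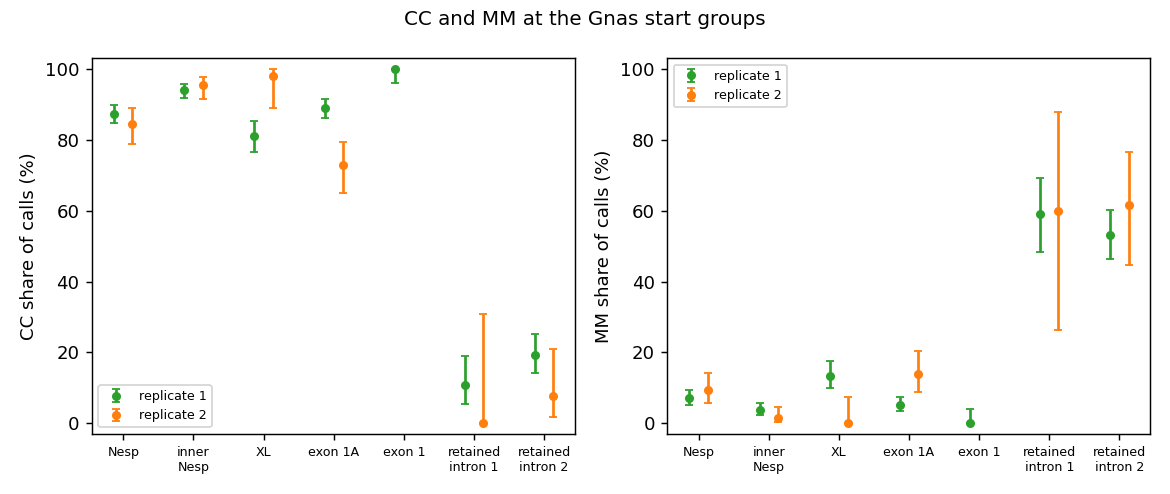
CC (left) and MM (right) as a percentage of calls in the window of each of the 7 Gnas start groups, for replicate 1 (green) and replicate 2 (orange), with exact 95% intervals of counting error. The Nesp, inner Nesp, XL, exon 1A and exon 1 groups lie above 70% CC, and the 2 groups of retained-intron transcripts lie below 20%.

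Set among the start windows of all genes with at least 5 sites in each replicate, the first 4 groups were in the upper part of the range of CC. Nesp exceeded 78.1% of windows in replicate 1 and 77.4% in replicate 2, the inner Nesp group 87.2% and 89.6%, XL 72.3% and 94.0%, and exon 1A 79.8% and 69.5%. In both replicates together, 27.3% of the 51538 windows were unmethylated, 40.9% methylated and 10% mixed. No Gnas window was mixed in either replicate. The Nesp, inner Nesp and XL windows were unmethylated in both, and exon 1A in replicate 1.

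The remaining start groups, each a single transcript with a retained intron, were methylated. The first had 10.8% CC and 59.1% MM over 93 calls in replicate 1, and 6 of its 10 calls in replicate 2 were MM. The second had 19.2% CC and 53.3% MM in replicate 1 (214 calls) and 7.69% CC and 61.5% MM in replicate 2 (39 calls). Both windows lie within the shared downstream exons and introns and add to their calls. From the exon 1 start to the gene end, MM was 52.0% in replicate 1 and 57.9% in replicate 2. Gm20721, a protein-coding annotation on the minus strand over the same stretch, had 54.0% and 57.9% MM.

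Neighbouring start groups were compared by CC against all other calls with Fisher's exact test within each replicate, two-sided, on sites that belonged to 1 group only, with Benjamini-Hochberg adjustment over 10 tests. These tests compare calls of 1 library, and linked calls make their p-values too small. Of 4 pairs with sites in both replicates, 1 differed in the same direction in both. The Nesp and inner Nesp windows overlap, so this pair set sites before the Nesp start against sites more than 1 kb after it. In replicate 1 the inner Nesp sites had 89.5% CC and the Nesp sites 72.9% (exact adjusted p = 4.2e-05). In replicate 2 they had 90.2% and 58.0% (exact adjusted p = 0.000173). Over the full windows, which were not tested, CC was 94.1% and 87.4% in replicate 1 and 95.4% and 84.5% in replicate 2. With only sites at least 200 bp apart, this pair kept its direction, with differences of 19.3 and 35.3 percentage points on 4 against 5 and 2 against 2 sites. Neither passed (exact adjusted p = 0.17 and 0.183), and no pair differed in both.

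Of the other pairs, the retained-intron starts differed by 8.41 percentage points in replicate 1 (exact adjusted p = 0.118) and by 7.69 in replicate 2 (exact adjusted p = 1), with the second higher in both. The pairs with XL had opposite signs in the libraries. XL was lower in CC than the inner Nesp group in replicate 1, by 12.9 percentage points (exact adjusted p = 1.48e-08), and higher by 2.53 in replicate 2 (exact adjusted p = 0.768). Exon 1A was 7.79 percentage points above XL in replicate 1 (exact adjusted p = 0.002) and fell by 25.1 percentage points against it in replicate 2 (exact adjusted p = 9.93e-05). With sites at least 200 bp apart, the drop from the inner Nesp group to XL in replicate 1 was 5.58 percentage points (exact adjusted p = 0.486). Exon 1A then lay below XL in replicate 1, by a difference of -2.97 percentage points (exact adjusted p = 0.89), so both calls were lost and the second changed sign. The drop from exon 1 to the first retained-intron start, from 100% to 10.8% CC, could be tested in replicate 1 only (exact adjusted p = 1.36e-40).

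Hydroxymethylated states were also unevenly placed along the locus. Added together, HC/CH, HM/MH and HH made up 7.39% of calls in replicate 1 (6.82 to 8%) and 5.78% in replicate 2 (4.76 to 6.95%), against 8.51% and 6.29% genome-wide. From the Nespas start through the XL exon, 10 of 1057 calls in replicate 1 (0.946%) and 2 of 269 in replicate 2 (0.743%) carried hmC. The levels were 2.05% and 1.36% between the Nesp and Nespas starts, and 0.323% and 5.88% (4 of 68 calls) between exon 1A and exon 1. All are shares of all calls, and CC was 88.3% and 92.7% between the Nesp and Nespas starts. There, replicate 1 had 33 hmC calls beside 33 MC/CM and 123 MM calls, and replicate 2 had 6 beside 8 and 18. In the Nespas and XL stretch, MC/CM and MM had 22 and 149 calls in replicate 1, and 3 and 15 in replicate 2. Genome-wide, MC/CM was 13.5% and 14.6% and MM 55.9% and 59.6%. Shares among modified calls were not computed. Between the Nespas and XL starts, 0 of 517 calls in replicate 1 were HC or CH, and 3 counts of this total, taken as the limit that a count of 0 allows, would be 0.580%.

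In the methylated stretch between the XL exon and exon 1A, 7.22% of 2090 calls in replicate 1 and 7.39% of 528 in replicate 2 carried hmC, against 8.51% and 6.29% genome-wide.

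The levels before Nesp were above the genome-wide level in replicate 1, and in replicate 2 the interval includes it. In the 10 kb before the Nesp start, 151 of 938 calls carried hmC in replicate 1 (16.1%, 13.8 to 18.6%) and 17 of 180 in replicate 2 (9.44%, 5.6 to 14.7%). HC/CH alone was 8.64% and 6.67% there, and the interval in replicate 2 (3.49 to 11.4%) includes the genome-wide 3.66%. From the exon 1 start to the gene end, 13.3% of 1334 calls in replicate 1 (11.5 to 15.2%) and 11.9% of 285 calls in replicate 2 (8.40 to 16.3%) carried hmC, above the genome-wide level of each library.

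Among bins with at least 5 sites, the one with the highest hmC level in replicate 1 began 5 kb before Nesp. It had 29 hydroxymethylated calls of 99 (29.3%, 20.6 to 39.3%). HC/CH alone made up 22.2% of its calls, and 0.178% of bins genome-wide were at or above its hmC level. Replicate 2 had 2 such calls of 19 in the bin (10.5%, 1.30 to 33.1%), at 3 sites. The second, at the 3′ end of Gnas, had 26.3% of 76 calls in replicate 1 and no calls in replicate 2. Both bins were chosen for their values.

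**Figure D5:**
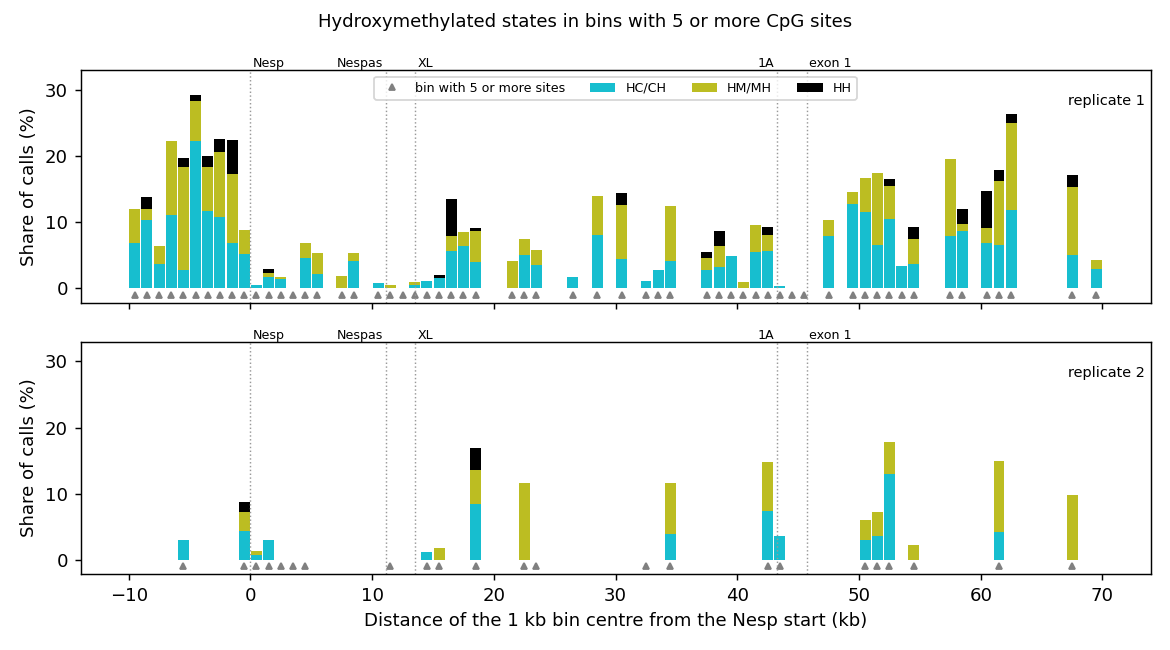
HC/CH, HM/MH and HH, stacked, as a percentage of calls in each 1 kb bin with at least 5 CpG sites (grey triangles), against the distance from the Nesp start in kb, for each replicate. In replicate 1 the levels reach 29.3% before Nesp and are low from Nesp to XL, and few bins of replicate 2 before Nesp have enough sites.

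For the asymmetric states, the orientation was compared with equal shares by exact binomial tests, two-sided, adjusted over 6 tests. Because Gnas is transcribed from the plus strand, MC has its mC, and HC and HM have their hmC, on the coding strand of Gnas. The calls also cover the 10 kb flanks and the minus-strand genes Nespas and Gm20721. HC made up 44.4% of 306 HC/CH calls in replicate 1 (38.8 to 50.2%) and 40.0% of 60 calls in replicate 2 (27.6 to 53.5%), with exact adjusted p-values of 0.354 and 0.447. MC made up 47.5% and 50.6% of MC/CM, and HM 48.7% and 58.1% of HM/MH. None of the 6 tests passed with or without adjustment, and the lowest unadjusted p from the exact test was 0.0591, for HC/CH in replicate 1. 

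Start windows of other genes give the setting for Gnas. Of 16 other maternally methylated imprinted genes, 5 had a mixed start window in both replicates (31.2%), against 14.8% of 31190 genes with a measured window. They were Mest, Plagl1, Grb10, Peg13 and Cdh15. With windows of 500 bp either side there were 4, without Plagl1 and Cdh15 and with Inpp5f, beside 9.48% of all genes. With 2 kb there were 6, without Grb10 and with Inpp5f and Nap1l5, beside 20.7% of all genes. Plagl1, a zinc finger gene expressed from the paternal allele, had 57.8% and 56.8% CC with 29.6% and 30.1% MM, and Peg13, a noncoding RNA, had 46.7% and 33.7% CC with 41.8% and 58.7% MM. Gnas, with none, was among those with unmethylated windows, as were Peg3 (86.8% and 81.8% CC) and Mcts2 (83.4% and 89.1%). A gene counted if any of its windows was mixed. By window, 6 of 36 in this list were mixed in both replicates, 9 unmethylated and 7 methylated, beside 10%, 27.3% and 40.9% of all 51538 windows. Another start window of Grb10 (95.4% and 96.0% CC) was unmethylated in both replicates. The Mest start window with the most covered sites (56 and 23) was mixed in neither. It had 73.3% and 83.2% CC with 23.2% and 16.1% MM.

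Other G protein α subunits, of the Gi, Gq, G12/13 and transducin families, and the enzymes downstream of Gsα were also counted. Of 13 measured α subunits, 1 had a mixed window, Gna15, which couples receptors to phospholipase C (47.6% and 30.4% CC). Of 9 adenylyl cyclases, which make cAMP, 1 had a mixed window, Adcy6 (38.7% and 27.2%), and of 6 protein kinase A subunits, which respond to cAMP, 1 had, Prkar1a (44.7% and 33.9%). These are shares of 7.69%, 11.1% and 16.7%, beside the 14.8% of all genes. With windows of 2 kb either side, 5 of 10 adenylyl cyclases had one, beside 20.7% of all genes. Another start window of Gna15 (76.6% and 86.7% CC) and of Prkar1a (91.7% and 87.3%) was unmethylated in both replicates. With windows of 500 bp either side, the mixed members were Gnao1 and Prkacb in place of Gna15 and Prkar1a.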

How the data were processed

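SCoTCH-seq was run on 2 passages of E14 mESCs. The authors filtered and trimmed read pairs with Cutadapt (version 4.6), aligned the inserts to mm10 with BSBolt, removed duplicates with Picard (version 3.1.1), and called a CpG state at each site of a read pair. The deposited files give, for each CpG site and state, a count of calls and its percent of the depth. Sites under 5 calls and blacklisted regions had been removed per replicate, and the authors applied no spike-in correction to these counts. All depths equalled the sum of the counts, and all percentages followed from them.

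Levels were computed from summed counts with Python 3.11.15 and SciPy 1.17.1. Genes and starts came from GENCODE vM21. By rule, the text names genes in the locus, list genes with a mixed start window, and the 5 genes closest to Gnas. Peg3, Mcts2, Inpp5f and Gpr1 were named after their values were seen, and the printed sequences were chosen likewise. Members and lists were chosen with earlier results of these data known. Corrected levels solved the 9 states from the spike-in call rates of the library itself. The steps were tested on simulated data. Alternatives changed bins, windows, depth and site minimums, weighting, correction, shared sites and the replicate used.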

Additional observations from a re-analysis of the deposited data

How the results depend on the processing

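No paired analysis was possible because there is 1 group. The mean CC level of the locus, 49.9%, was 51.5% as a mean over sites, 48% with at least 10 calls per site, 47.2% at sites in both replicates, 50.3% after spike-in correction and 54.7% over the gene span. In the same order MC/CM was 8.06%, 8.15%, 9.12%, 7.48% and 8.03%. MM was 37.3% with at least 10 calls, 36.8% at shared sites, 36.9% corrected and 31.7% over the gene span. HM/MH was 2.11% with at least 10 calls, 1.67% corrected and 2.08% over the gene span, and HH was 0.831% with at least 10 calls.

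The count of mixed bins, 1, was 0 with at least 10 calls per site, which left 1 bin to be classed of the 23, 0 with at least 10 sites per bin, which left 6, and 0 with limits of 35 to 65%, and 3 to 6 with a single replicate. Unmethylated bins, 9, were 5 with 2 kb bins (22 classed), 1 of 1 with at least 10 calls, 6 of 6 with at least 10 sites and 9 to 15 with a single replicate. Methylated bins, 11, were 5 of 20 with 500 bp bins, 0 of 1 with at least 10 calls, 0 of 6 with at least 10 sites and 11 to 33, of 23 and 59, with a single replicate. Start groups over 75% CC, 3 in both replicates, were 3 to 5 in a single one. Pairs of start groups that differed in both replicates, 1 of 4, were 0 of 4 with sites at least 200 bp apart. With windows of 2 kb either side they were 3 of 6, and with at least 10 calls no pair could be tested in both.

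Mixed start windows among the other imprinted genes, 5, were 0 with limits of 35 to 65% and 7 to 8 in a single replicate. The G protein α subunits had 2 with windows of 2 kb, 0 with the narrower limits and 1 to 2 in a single replicate, the adenylyl cyclases 5, 0 and 1 to 5, and the protein kinase A subunits 2, 0 and 2 to 3. The share of all genes, 14.8%, moved with these settings, to 20.7% with windows of 2 kb, 1.66% with the narrower limits and 22.6 to 25% in a single replicate. The corrected MC/CM share of the Nespas and XL stretch, an alternative chosen after seeing the data, averaged 4.25% against 14.8%. The causes were not tested. Within replicate 1, the difference in CC between XL and exon 1A, 7.79 percentage points, was -2.97 with sites at least 200 bp apart and -2.45 with windows of 2 kb, and that between exon 1A and exon 1, 11.1, was -31.3 with windows of 2 kb (exact adjusted p = 8.34e-14). The order of the replicates in HM/MH turned around after spike-in correction. Replicate 2 has 17 sites with at least 10 calls, which limits the settings that need them.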
